A study of Mus musculus with 9 samples.

Results

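Calb2 and Hydin are 2 protein-coding genes that lie close together on mouse chromosome 8, followed here across 9 libraries of neural stem cells with normal or lowered Rad21 mRNA. They were chosen by their measured counts, as genes nearly silent with the control hairpin and raised by knockdown, from the 24503 gene rows of the deposited table. Their levels against the control hairpin are therefore a description and carry no test. The cells were primary mouse neural stem cells from the cortex at embryonic day 13.5, expanded on laminin (5 µg/mL) with FGF (10 ng/mL) and EGF (20 ng/mL). All 3 groups had the genotype wild type (Phf2flox/flox) and were transduced with virus. One group received a non-targeting hairpin (shNT), and the others received hairpin shRad21 #1 (here shRad21_1) or shRad21 #2 (shRad21_2), with 3 libraries in each group. The labels do not say if replicates were separate cultures or embryos, so p-values reflect only the variation from library to library, possibly technical.

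Calb2 encodes calretinin, a cytosolic EF-hand protein that binds calcium and is widely used to mark subsets of interneurons, Cajal-Retzius cells and, outside the brain, mesothelium. Hydin encodes a very large protein of the central apparatus, the structure around the central microtubule pair of motile cilia, and its loss in mice causes hydrocephalus. In the brain, motile cilia are carried by ependymal and choroid plexus cells, whose ciliary genes are switched on by Foxj1 and by factors of the RFX family. Rad21 is the subunit that closes the cohesin ring. Cohesin holds sister chromatids together and folds chromatin into loops that often end at sites bound by CTCF.

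In GENCODE M21 (GRCm38, the same assembly as the mm10 named in the submitters' processing notes), Calb2 (ENSMUSG00000003657.9) covers chromosome 8 from 110137502 to 110168210 on the minus strand. Hydin (ENSMUSG00000059854.8) covers 110266977 to 110610253 on the plus strand, a body of 343.3 kb against 30.7 kb for Calb2. The genes point away from each other and their starts lie 98.8 kb apart. They are not direct neighbours: Cmtr2, which encodes a methyltransferase of the messenger RNA cap, lies between them from 110215665 to 110224486. A noncoding gene on the other strand, Gm26832, is annotated across the Hydin start from 110265248 to 110267462 and has no row in the table. How strand was treated in the counting is not stated, so reads from such a transcript and from the first exon of Hydin cannot be told apart.

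The Hydin promoter is shown because it holds a stretch of the X-box type, the kind of element that RFX factors bind, directly upstream of the start. The 250 bases before the start, from RefSeq on GRCm38.p6 (chr8:110266727-110266976, plus strand), are printed 5′ to 3′ with the X-box match in capitals.

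Hydin promoter: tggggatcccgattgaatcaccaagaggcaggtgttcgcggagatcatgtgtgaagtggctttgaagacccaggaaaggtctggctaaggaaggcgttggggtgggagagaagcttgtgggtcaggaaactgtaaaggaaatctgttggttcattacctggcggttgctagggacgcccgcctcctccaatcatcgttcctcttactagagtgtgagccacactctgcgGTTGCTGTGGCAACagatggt

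The capitals run from position -21 to -8 relative to the start. The motif searched was GTTGC, any 3 bases, then GGCAAC, on both strands, and its letters were chosen after this promoter had been read. Of 32851 RefSeq promoter windows of 300 bases (250 before to 50 after a start), 49 held it (0.149%). A CCAAT box (the letters CCAAT) occurred once in the Hydin window, as in 37.4% of all windows. The letters TATAAA and a degenerate CTCF core (CC, any 3 bases, AG, any 2 bases, GGC) were absent from the Hydin window and present in 13.6% and 8.61% of windows. These matches describe the letters and not binding. Only the Hydin promoter is shown.

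The targeted transcript, Rad21, was reduced by both hairpins without any overlap between groups. In CPM (counts scaled to the library total, with TMM factors), Rad21 stood at 531, 450 and 456 in shNT replicates 1, 2 and 3, at 187, 174 and 178 with shRad21_1, and at 82.0, 91.2 and 82.5 with shRad21_2. Library totals ran from 34780003 to 46644607 counts. A count of 3 was worth 0.0664 to 0.0880 CPM. Libraries of a group were unequally close. The median absolute log2 difference over tested genes was 0.06 for replicates 2 and 3 of shNT and of shRad21_1, whereas all remaining within-group pairs had 0.14 to 0.21. In shRad21_1, replicate 1 stood apart by this measure (0.2 and 0.21 from replicates 2 and 3). For 1832 of 13560 tested genes (13.5%) it alone of the 3 lay inside the range of the shRad21_2 libraries. The like share for replicates 2 and 3 is not given, so this share by itself does not set replicate 1 apart. Results that rest on this library are given with and without it. All 11 neural stem cell markers passed the filter on low counts. Sox2, named outside the rule for naming genes, ranged from 267 to 450 CPM over the 9 libraries. Nes, the intermediate filament nestin, ranged from 1150 to 2700 CPM. At an adjusted p under 0.05, 2 markers rose with shRad21_2 (Nes and Pax6) and 5 fell, among them Slc1a3 and Sox9. Over all genes 21.1% rose and 22.5% fell. The marker median was -0.39, against 0.01 over all genes. With shRad21_1, 0 rose and 0 fell, against 4.19% and 5.63%.

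Calb2 was almost without counts in the control. The shNT libraries held 3, 1 and 0 counts, or 0.0825, 0.0236 and 0 CPM. With shRad21_1 the libraries held 290, 31 and 28 counts, or 7.88, 0.827 and 0.745 CPM. With shRad21_2 they held 177, 93 and 112 counts, or 3.92, 2.73 and 3.20 CPM. Every knockdown library thus lay above every shNT library, which the choice of the gene fixed. The shRad21_1 group was wide: replicate 1 was the highest of all 9 libraries, the other replicates were the lowest of the 6 knockdown libraries, and the shRad21_2 libraries lay between them. The mean level was 0.0354 ± 0.0425 CPM for shNT, 3.15 ± 4.10 for shRad21_1 and 3.28 ± 0.601 for shRad21_2 (SD, n = 3 each).

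Hydin had a low but measurable level in the control. The shNT libraries held 35, 33 and 34 counts, or 0.962, 0.779 and 0.754 CPM. With shRad21_1 they held 771, 102 and 107 counts, or 21.0, 2.72 and 2.85 CPM. With shRad21_2 they held 1385, 877 and 686 counts, or 30.7, 25.7 and 19.6 CPM. Again no knockdown library overlapped shNT. Replicate 1 of shRad21_1 lay inside the range of shRad21_2, while replicates 2 and 3 lay far below it and closer to the control. Group means were 0.832 ± 0.114, 8.84 ± 10.5 and 25.3 ± 5.56 CPM (SD, n = 3 each). These are bulk libraries, in which more cells with a transcript and more of it per cell cannot be told apart.

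**Figure D1:**
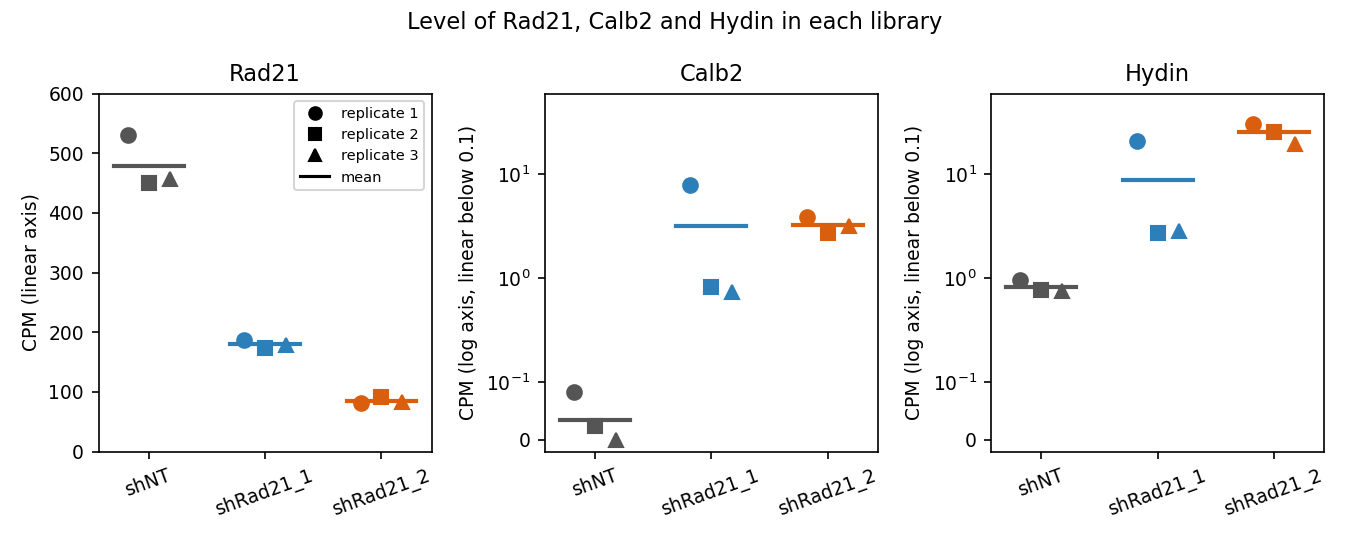
Level in CPM (vertical axes; linear for Rad21, logarithmic and linear below 0.1 for Calb2 and Hydin) of the 3 genes in each of the 9 libraries, by group, with the marker shape giving the replicate and the bar the arithmetic mean. In shRad21_1, replicate 1 (circle) lies at 7.88 CPM for Calb2 and 21.0 for Hydin, far above replicates 2 and 3, while the 3 replicates lie together for Rad21.

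The spread inside the shRad21_1 group was shared by both genes and not by Rad21. Replicate 1 had 9.53 and 10.6 times the Calb2 level of replicates 2 and 3, and 7.70 and 7.36 times their Hydin level. Its Rad21 level was 1.08 and 1.05 times theirs. Of all shRad21_1 counts, replicate 1 held 83.1% for Calb2 and 78.7% for Hydin. Whether the other features of that library play a part in these levels was not tested.

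As ratios of pooled counts over TMM-scaled library totals, Calb2 with shRad21_1 was 96.6 times shNT (exact Clopper-Pearson interval 37.4 to 356, which covers counting error only, at a confidence level of 0.95). The ratio was 244 (94.3 to 902) for replicate 1 alone, 25.6 (9.05 to 99.8) for replicate 2 and 23.1 (8.06 to 90.4) for replicate 3. With shRad21_2 the Calb2 ratio was 103 (40.1 to 382), and single libraries ran from 84.4 to 121. All of these rest on the 4 counts of shNT. For Hydin the denominator was 102 counts, and the ratio was 10.6 (8.67 to 13.2) with shRad21_1 and 31.3 (25.7 to 38.5) with shRad21_2. The single shRad21_1 libraries gave 25.4, 3.30 and 3.45, and those of shRad21_2 gave 37.2, 31.2 and 23.8. The intervals of Hydin in replicates 2 and 3 of shRad21_1 (2.49 to 4.39 and 2.61 to 4.58) thus lay below the lowest bound of any shRad21_2 library (19.3).

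In the fit over all 13560 tested genes (edgeR quasi-likelihood), Calb2 had a log2 fold change of 6.46 (SE 1.26) under shRad21_1 and of 6.52 (SE 1.26) under shRad21_2. It ranked 2nd and 3rd in size among higher genes. Hydin had 3.41 (SE 0.77), ranked 14th, and 4.93 (SE 0.79), ranked 6th. Without shRad21_1 replicate 1, the shRad21_1 values were 4.47 for Calb2 and 1.75 for Hydin. Both hairpins were set against the same shNT libraries. As background, 1331 of 13560 genes (9.82%) passed an adjusted p under 0.05 with shRad21_1, 4.19% higher and 5.63% lower, and 43.6% with shRad21_2, 21.1% higher and 22.5% lower. Both members stand among the higher genes of both comparisons, and nothing is read from this, since the comparisons chose them.

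The comparison between the hairpins was not used to choose the genes, and asks whether their level goes with the hairpin that left less Rad21. Over all genes 26.3% differed between the hairpins, 11.9% higher and 14.4% lower with shRad21_2. Neither gene passed the test. The log2 difference of shRad21_2 from shRad21_1 was 0.06 for Calb2 (SE 0.76, confidence interval -1.62 to 1.74, edgeR adjusted p = 0.959), an interval that leaves room for a difference in either direction. For Hydin it was 1.52 (SE 0.65, interval 0.08 to 2.96, edgeR adjusted p = 0.109). Both calls turned on replicate 1 of shRad21_1. Without it the differences were 2.06 for Calb2 (edgeR adjusted p = 0.00147) and 3.19 for Hydin (edgeR adjusted p = 2.70e-06). Every shRad21_2 library then lay above both remaining shRad21_1 libraries. Those libraries were a close pair (median absolute log2 difference 0.06), and the labels do not say if they were separate cultures. The adjusted p without replicate 1 may thus rest on too small a spread. Over 18 alternatives the adjusted p ran from 0.00147 to 0.992 for Calb2 and from 2.70e-06 to 0.297 for Hydin, which also passed with limma-voom and with a replicate block.

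The ratio of Hydin to Calb2 counts did not overlap between the hairpins. Hydin had 2.66, 3.29 and 3.82 counts per Calb2 count with shRad21_1 and 7.82, 9.43 and 6.12 with shRad21_2. Replicate 1 of shRad21_1, although high in both genes, had the lowest value of its group. On the log2 scale the means were 1.69 ± 0.26 and 2.94 ± 0.31 (SD, n = 3 each), a difference of 1.25. The two-sided exact permutation test gave p = 0.1, the smallest value that 3 against 3 libraries allow, so the design cannot pass a threshold of 0.05. A ratio within a library does not depend on the scaling of totals. In shNT the ratio was 11.7 and 33.0 in replicates 1 and 2, on 3 and 1 Calb2 counts, and had no value in replicate 3.

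Per length, Calb2 was the more abundant transcript in every knockdown library. The exons of Calb2 cover 1.74 kb and those of Hydin 18.04 kb, so equal counts are not equal levels. In CPM per kb of exon, Calb2 stood at 4.52, 0.475 and 0.427 with shRad21_1 and at 2.25, 1.56 and 1.83 with shRad21_2. Hydin stood at 1.16, 0.151 and 0.158, and at 1.70, 1.43 and 1.09. In shNT Hydin was at 0.0534, 0.0432 and 0.0418 and Calb2 at 0.0473, 0.0135 and 0. Their order was thus Hydin above Calb2 in the control and Calb2 above Hydin after knockdown. In shNT replicate 1 the margin rested on 3 Calb2 counts, and in shRad21_2 replicate 2 the levels were close. Cmtr2, between them, stood between 3.40 and 5.88 CPM per kb of exon over the 9 libraries, and above both genes in each of them. It came closest in shRad21_1 replicate 1, at 4.72 against 4.52 for Calb2.

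**Figure D2:**
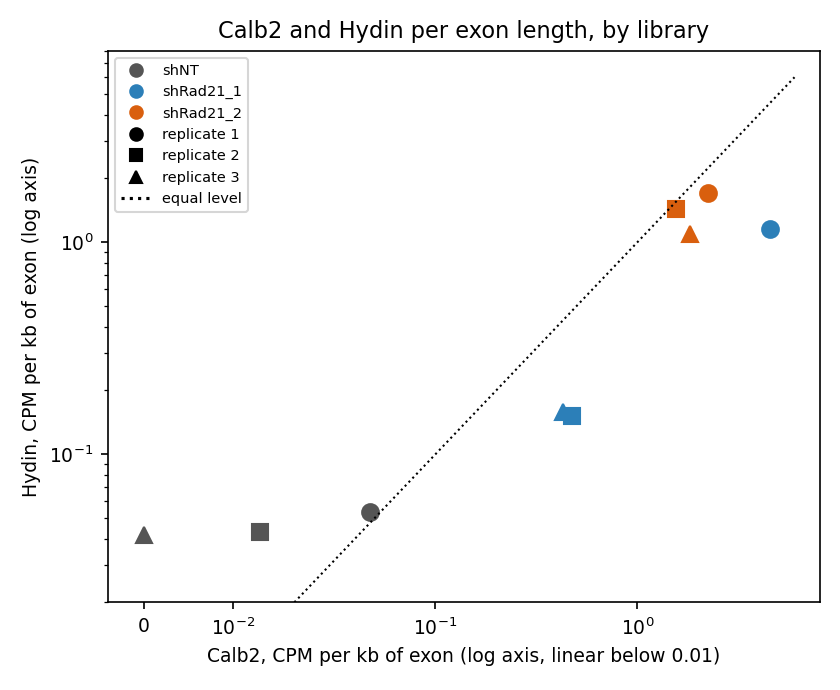
Calb2 (horizontal axis) against Hydin (vertical axis), both in CPM per kb of exon on logarithmic axes (the horizontal one linear below 0.01), 1 point per library, colour for group and shape for replicate; the dotted line marks equal levels. The 6 knockdown libraries lie below the line, with shRad21_1 replicate 1 farthest to the right, and the shNT libraries lie above it.

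The genes around the pair showed no rise of like size. The pair was chosen for its rise over shNT, so smaller changes in other genes are what the choice makes likely, and nothing is read from the gap. Within 500 kb of the span from Calb2 to Hydin, GENCODE places 46 further genes, of which 28 had a row and 20 passed the filter on low counts. Of the 8 that did not, 6 were at 0 in all libraries (Tat, Chst4, 8030455M16Rik, Snord71, Snord111 and Mir3473d), Pkd1l3 had 4 counts in all and Marveld3 had 21. The silent genes Chst4 and Tat lie on the far side of Calb2 from Hydin and had no count in any knockdown library.

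With shRad21_2, 4 of the 20 neighbours rose and 1 fell, against 21.1% and 22.5% of all genes. Cmtr2 went from 15.1, 14.0 and 17.7 CPM with shNT to 20.0, 23.9 and 24.2, without overlap (log2 fold change 0.54, SE 0.12, edgeR adjusted p = 0.00481). Exosc6, a subunit of the RNA exosome at the far end of the window, stood at 39.3, 33.2 and 33.2 CPM in shNT and rose to 70.5, 61.2 and 64.6 (0.89, SE 0.11, adjusted p = 1.76e-04). Its annotated body lies within the end of Aars, so counts could be split between the 2 genes, and Aars had -0.09 (SE 0.14). Zfp821, a zinc finger gene, rose by 0.39 (SE 0.09) and the splicing factor gene Sf3b3 by 0.36 (SE 0.08). Il34, which encodes a ligand of the CSF1 receptor, went the other way, from 3.57, 6.21 and 6.43 CPM to 0.842, 0.616 and 0.856 (-2.80, SE 0.39, adjusted p = 3.97e-04). All 5 calls held under each of the 18 alternatives run.

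With shRad21_1, Exosc6 was the 1 neighbour that rose (54.0, 46.3 and 43.6 CPM; 0.45, SE 0.11, edgeR adjusted p = 0.0298) and none fell, against 4.19% and 5.63% of all genes. At an unadjusted p under 0.05, 0 were lower by edgeR, the DESeq2 Wald test or limma-voom. The Exosc6 call was lost without shNT replicate 2 or 3, without shRad21_1 replicate 1 or 2 and with close pairs of libraries summed, 5 of 18 alternatives. Cmtr2 was at 19.4, 17.3 and 18.3 CPM, a range that overlapped shNT (0.23, SE 0.12, adjusted p = 0.246). Il34 was at 9.05, 4.51 and 3.62 CPM (0.08, SE 0.34). Between the hairpins, Il34 was lower with shRad21_2 (-2.88, SE 0.39, adjusted p = 9.34e-04) and Exosc6 higher (0.45, SE 0.11, adjusted p = 0.0141). The Exosc6 call between hairpins was lost without shRad21_1 replicate 2 or 3 and with close pairs summed.

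Directly beyond the end of Hydin, Vac14, a scaffold of the PIKfyve lipid kinase complex, had 0.07 (SE 0.08) with shRad21_1 and 0.16 (SE 0.08) with shRad21_2, neither called. On the far side of Calb2, Zfp612 had 0.06 (SE 0.22) and -0.33 (SE 0.22), neither called. The other neighbours tested (Ist1, Atxn1l, Ap1g1, Phlpp2, Mtss1l, Cog4, Fuk, St3gal2, Ddx19a, Ddx19b, Aars, Clec18a and Pdpr) were not called in any of the 3 comparisons. Clec18a, at 10, 15 and 21 counts in shNT and 7, 1 and 6 with shRad21_2, had the largest value among these (-1.58, SE 0.63, adjusted p = 0.0655).

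**Figure D3:**
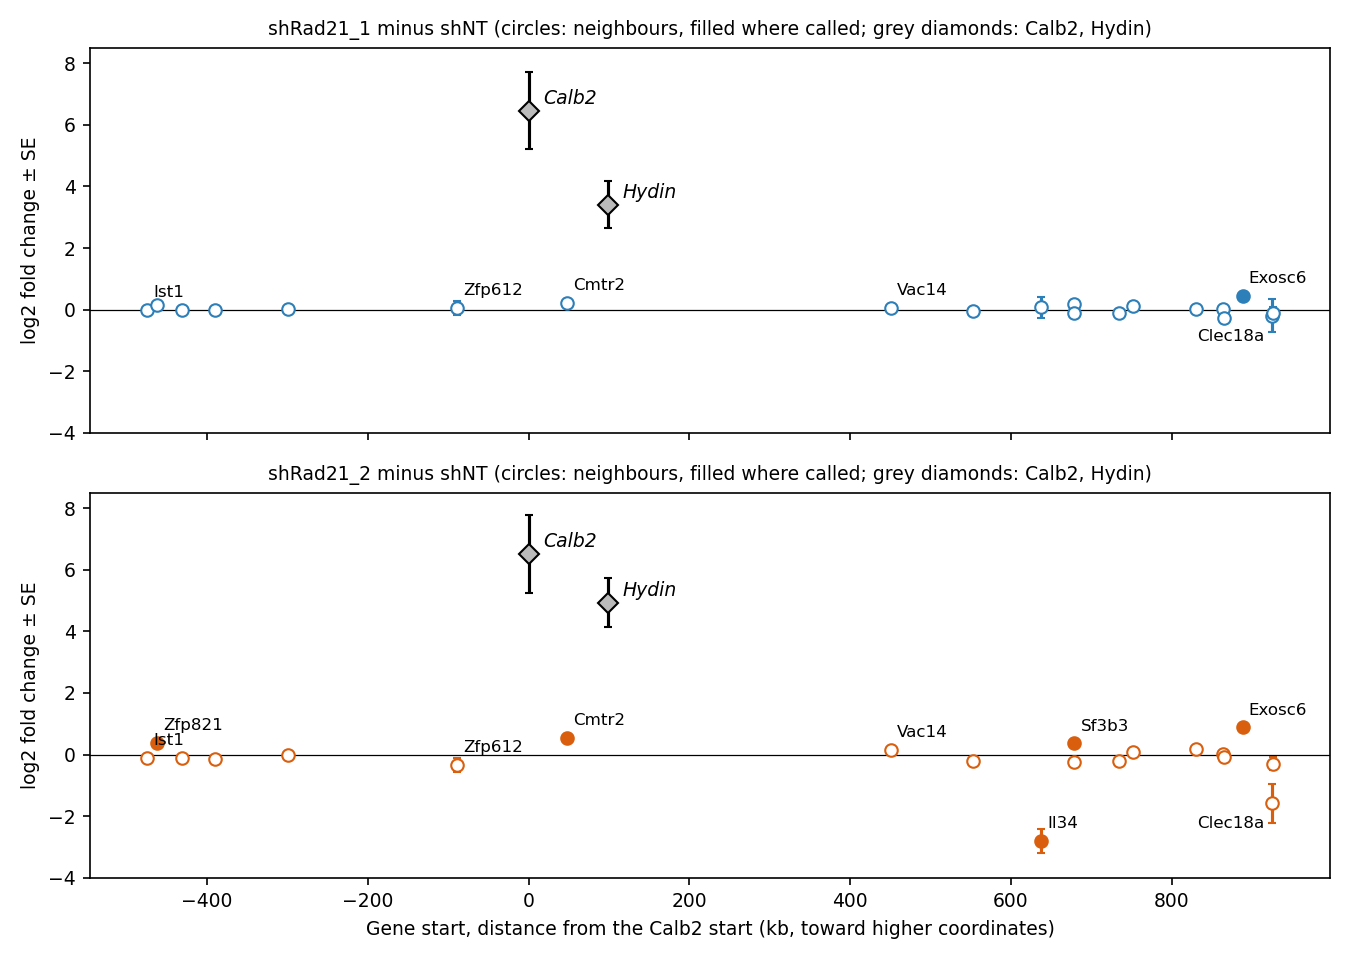
Log2 fold change with its SE (vertical axis) against the distance of each gene's start from the Calb2 start in kb (horizontal axis), for shRad21_1 (upper plot) and shRad21_2 (lower plot) against shNT; circles are the 20 tested neighbours, filled where called, and grey diamonds are Calb2 and Hydin. Calb2 (6.46 and 6.52) and Hydin (3.41 and 4.93), chosen for their rise over shNT, stand above the neighbours. These lie near 0 except Il34 (-2.80 with shRad21_2) and Clec18a.

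Of the other genes of the motile cilium, some rose and more fell with shRad21_2. None of those tested had a fold change as large as that of Hydin in either comparison, but Hydin was chosen for its rise. Of 14 listed genes of the central apparatus besides Hydin, 12 had a row and 6 were tested. With shRad21_2, Spef1, a microtubule-binding protein, was at 7.05 ± 1.14 CPM in the control and rose to 11.8 ± 0.655 (0.74, SE 0.13, edgeR adjusted p = 0.00175), and Cfap69 (-1.17, SE 0.31) and Cfap46 (-1.77, SE 0.58) fell, 1 and 2 of 6 against 21.1% and 22.5% of all genes; the median was -1.04, against 0.01 over all genes. With shRad21_1, 0 were called by edgeR (median -0.02), while over all genes 4.19% rose and 5.63% fell. The DESeq2 Wald test and limma-voom each called 1, Spef1, which was also the 1 gene with an unadjusted p under 0.05. Its log2 fold change was 0.48 (edgeR adjusted p = 0.0504, or 0.0477 with the replicate block). Spag6l, a further protein of this structure, had -1.79 (SE 0.67) with shRad21_2. The call of Cfap69 was lost without shNT replicate 2 and with close pairs summed, and that of Cfap46 without shNT replicate 2 or 3, without shRad21_2 replicate 2 or 3 and by the DESeq2 Wald test.

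Of 54 listed genes of the outer parts of the axoneme and of its assembly, 50 had a row and 29 were tested. With shRad21_2, 3 of the 29 rose and 9 fell, with a median of -0.87; over all genes 21.1% rose and 22.5% fell. Drc1, of the nexin-dynein regulatory complex, fell to 0.0509 ± 0.0193 CPM, against 0.771 ± 0.287 in the control (-3.81, SE 0.54, edgeR adjusted p = 4.19e-04). The radial spoke gene Rsph9 (-1.58, SE 0.27), Cfap44 (-4.55, SE 0.88) and the dynein assembly gene Zmynd10 (-2.88, SE 0.65) fell as well. The 3 that rose were Dnaaf2, which also serves dynein assembly (0.61, SE 0.10), and, chosen after their values were seen, Dnah17 (1.16) and Ccdc40 (1.24). With shRad21_1, Drc1 was the 1 that fell (-2.82, SE 0.48), a call lost with close pairs summed. Over all genes 4.19% rose and 5.63% fell with this hairpin. By edgeR, the DESeq2 Wald test and limma-voom 0 rose, with 1, Ccdc40, higher at an unadjusted p under 0.05. Most of these genes had few counts. With the filter of 1 CPM in 3 libraries, which tests fewer genes, 2 rose and 3 fell with shRad21_2. In the central apparatus list 1 rose and 1 fell with that filter. The count of fallen genes, 9 in the main fit, was 6 without shNT replicate 3 and likewise without shRad21_2 replicate 3. The count of risen genes, 3 in the main fit, was 1 without shNT replicate 2. Leaving out each other library gave 7 to 12 that fell and 2 to 3 that rose.

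Across both cilium lists, the highest value with shRad21_2 was 1.24 and with shRad21_1 1.07, both for Ccdc40, against 4.93 and 3.41 for Hydin. Hydin was chosen for its rise over shNT and ranked 6th and 14th of 13560 genes. Few genes of any kind could exceed it, so nothing is read from this gap. The summed level of the 12 central apparatus genes, without Hydin, ran from 15.6 to 18.1 CPM in shNT and from 19.1 to 20.5 CPM in the knockdown libraries, most of it from Spef1 and Cfap74 (0.17, SE 0.14 with shRad21_2). That of the 50 axoneme genes ran from 183 to 189 CPM in shNT and from 177 to 192 CPM after knockdown. Most of it came from Dnal1, Dnaaf5, Dnaaf2, Gas8, Rsph3b and Rsph3a, so the sum says little about the members with few counts.

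Foxj1, the master regulator of motile ciliogenesis, went down while Hydin stood higher. It was at 33.0, 36.9 and 39.0 CPM in shNT, at 12.9, 14.2 and 14.6 with shRad21_1 and at 7.42, 4.16 and 5.14 with shRad21_2, so that the 3 groups did not overlap. Foxj1 fell by 1.38 (SE 0.18, edgeR adjusted p = 0.00188) with shRad21_1 and by 2.70 (SE 0.19, adjusted p = 7.16e-06) with shRad21_2. Unlike Calb2 and Hydin, it did not set replicate 1 of shRad21_1 apart. Between the hairpins Foxj1 was lower with shRad21_2 (-1.31, SE 0.18, adjusted p = 0.00106).

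Of 18 listed regulators of multiciliation, 11 were tested. With shRad21_2, 3 rose (Myb, E2f4 and Plk4) and 3 fell (Foxj1 and, chosen after their values were seen, Rfx4 and E2f5), against the 21.1% and 22.5% of all genes. Myb, which drives centriole amplification among its other roles, rose by 1.14 (SE 0.13), E2f4 by 0.68 (SE 0.10) and the centriole kinase gene Plk4 by 0.50 (SE 0.09). With shRad21_1, Foxj1 was the 1 regulator called, while over all genes 4.19% rose and 5.63% fell. Gmnn (-0.46, edgeR adjusted p = 0.0669) also passed with the DESeq2 Wald test and with the replicate block (edgeR adjusted p = 0.0450). The RFX genes Rfx1 (0.20, SE 0.11), Rfx2 (0.17, SE 0.19) and Rfx3 (-0.25, SE 0.20) were not called with shRad21_2, nor with shRad21_1, and were chosen after their values were seen. Gmnc, Deup1, Cdc20b, Noto and Foxn4 were at 0 in all 9 libraries, and Mcidas, which with Gmnc starts the multiciliated programme, had 6 counts in all.

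**Figure D4:**
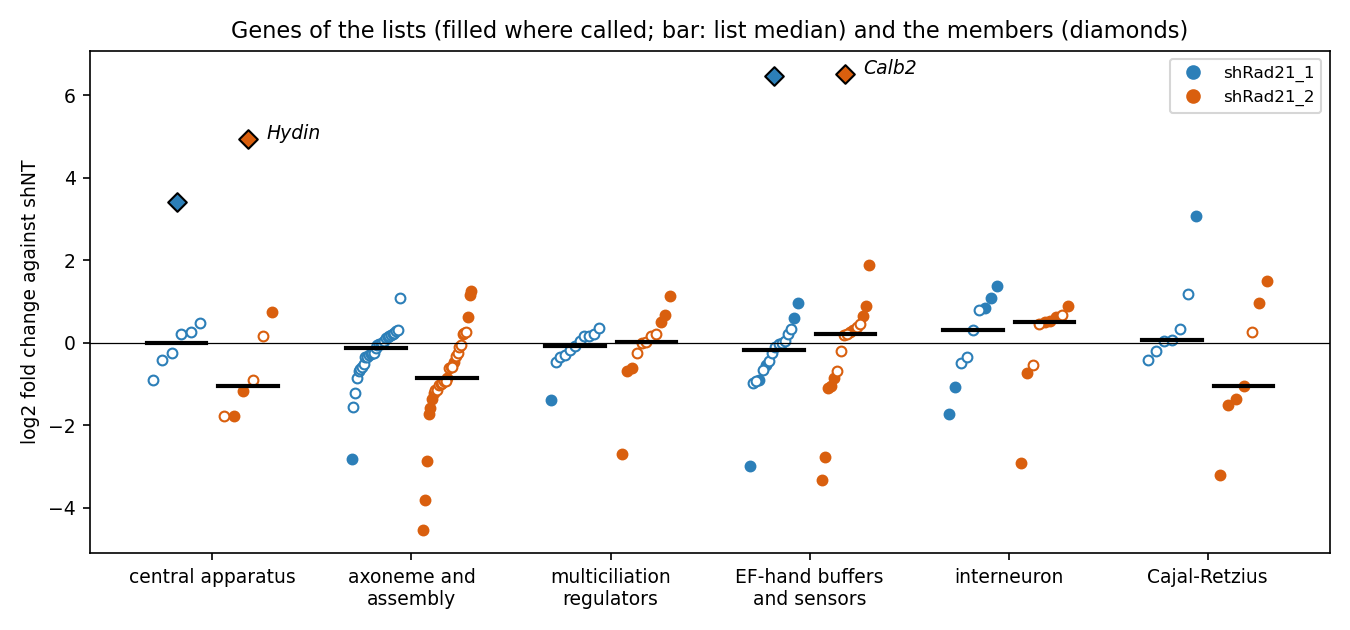
Log2 fold change against shNT (vertical axis) of every tested gene of 6 lists (horizontal axis), blue for shRad21_1 and orange for shRad21_2, filled where called, with the list median as a black bar; diamonds are Hydin and Calb2, which are not part of the lists. Hydin (3.41 and 4.93) lies above all central apparatus genes, and Calb2 (6.46 and 6.52) above all other EF-hand genes. Both were chosen for their rise over shNT, so nothing is read from these gaps.

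The calcium-binding relatives of calretinin went both ways. Its nearest relatives were nearly or wholly silent: Calb1 had 2 counts in the 9 libraries together, both in shNT, and Scgn had 0. Of 28 EF-hand buffers and sensors, 16 were tested. With shRad21_2, 5 rose and 5 fell (median 0.20), against 21.1% and 22.5% of all genes. With shRad21_1, 2 rose and 3 fell (median -0.18), against 4.19% and 5.63%. Necab2, a neuronal calcium-binding protein, rose with both hairpins, from 7.31 ± 0.363 CPM in the control to 14.3 ± 2.72 for shRad21_1 (0.96, SE 0.15, edgeR adjusted p = 0.00462) and 26.8 ± 2.71 for shRad21_2 (1.87, SE 0.15, adjusted p = 1.69e-05). Ncs1, neuronal calcium sensor 1, rose by 0.59 (SE 0.11) and 0.88 (SE 0.11).

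Pvalb, parvalbumin, fell from 0.656 ± 0.137 CPM, with log2 fold changes of -2.98 (SE 0.53) and -3.34 (SE 0.55), at few counts. Efhd2 (-0.55, SE 0.10, and -1.06, SE 0.10) and Efhd1 (-0.90, SE 0.16, and -0.85, SE 0.16) also fell with both hairpins. Summing close pairs, which was added once the data had been seen, ended the shRad21_1 calls of all 5. The count of risen EF-hand genes with shRad21_2 was 2 without shNT replicate 2, shNT replicate 3, shRad21_2 replicate 1 or shRad21_2 replicate 3, 3 without shRad21_1 replicate 2 or 3, and 4 to 7 without each of the others.

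Markers of the neurons that carry calretinin moved in both directions. Of 17 interneuron genes 9 were tested. With shRad21_1, 3 rose (Nr2f2, Dlx1 and, chosen after its values were seen, Dlx2) and 2 fell (Gad1 and, likewise, Htr3a), with a median of 0.31, against 4.19% and 5.63% of all genes. With shRad21_2, 4 rose (Nr2f2, Dlx1, Sp8 and Dlx2) and 2 fell (Gad1 and, likewise, Prox1), with a median of 0.51, against 21.1% and 22.5%. The count of risen genes with shRad21_2 was 1 without shNT replicate 2, 2 without shNT replicate 3 and 3 to 5 without each other library. The call of Sp8 (0.51) was lost in the first 2 cases and with close pairs summed. Nr2f2, a nuclear receptor of caudal interneurons, rose by 1.09 (SE 0.15) and 0.53 (SE 0.15), and Dlx1 by 0.84 (SE 0.17) and 0.61 (SE 0.17). Gad1, an enzyme of GABA synthesis, fell (-1.07, SE 0.14, and -2.93, SE 0.16). Close pairs summed ended the shRad21_1 calls of these 3 genes and the shRad21_2 calls of Nr2f2 and Dlx1. The call of Dlx1 with shRad21_1 was also lost without shNT replicate 3, and that of Nr2f2 with shRad21_2 without shNT replicate 2 or 3. Vip, the peptide of a main calretinin interneuron class, and Th were at 0 in all 9 libraries, and Gad2, Slc32a1 and Cck had 5, 4 and 2 counts in all. The summed level of the 17 genes ran from 168 to 177 CPM in shNT, from 131 to 174 with shRad21_1 and from 169 to 184 with shRad21_2.

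Of 12 Cajal-Retzius genes 7 were tested. With shRad21_2, Ebf2 and Ebf3 rose and 4 fell, among them Ndnf (-1.52, SE 0.29) and Cxcr4 (-1.05, SE 0.22); the median was -1.05, and over all genes 21.1% rose and 22.5% fell. Ebf2, a transcription factor of the early B cell factor family, was at 0.110, 0.189 and 0.0887 CPM in shNT, at 0.924, 1.31 and 1.12 with shRad21_1 and at 0.465, 0.264 and 0.371 with shRad21_2. It was the 1 of the list called with shRad21_1 (3.08, SE 0.39, edgeR adjusted p = 0.00188), against 4.19% higher and 5.63% lower over all genes. Ebf2 was lower with shRad21_2 than with shRad21_1 (-1.58, SE 0.35, edgeR adjusted p = 0.00925). Its call with shRad21_2 (1.5, SE 0.42) was lost without shNT replicate 3 or shRad21_2 replicate 1. Reln, chosen after its values were seen, was at 2.64, 20.7 and 19.1 CPM with shRad21_1, so that in contrast to Calb2 its replicate 1 was the low one. It was at 2.61, 8.38 and 7.69 in shNT and at 0.797, 0.821 and 0.400 with shRad21_2. The summed level of the list ran from 71.6 to 87.1 CPM in shNT, from 104 to 105 with shRad21_1 and from 112 to 131 with shRad21_2, most of it from Ebf3.

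Other calretinin-positive or ciliated cell types had little signal. Of 9 mesothelial genes, 5 (Wt1, Upk3b, Upk1b, Krt19 and Bnc1) were at 0 in all libraries and Msln, Krt8 and Krt18 had 3, 1 and 1 counts. Lrrn4 was the 1 tested. It was at 3.16, 2.27 and 1.88 CPM in shNT, at 6.14, 1.31 and 1.97 with shRad21_1 and at 12.2, 7.71 and 7.22 with shRad21_2 (1.90, SE 0.50, edgeR adjusted p = 0.0115 with shRad21_2; 0.37, SE 0.50 with shRad21_1). Replicate 1 of shRad21_1 was thus the high one for Lrrn4 as for Calb2 and Hydin.

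Of 10 choroid plexus genes, Ttr, the defining transthyretin gene, had 4 counts in all libraries together, and Prlr and Lmx1a were at 0. Otx2 and Aqp1 were tested; Otx2 had 0.04 (SE 0.16) and 0.02 (SE 0.16), and Aqp1 fell (-1.60, SE 0.40, and -1.77, SE 0.40). The shRad21_1 call of Aqp1 was lost without shNT replicate 2 or 3, without any 1 shRad21_1 library and with close pairs summed. The summed level of the list ran from 26.1 to 30.5 CPM in shNT, from 20.8 to 33.1 with shRad21_1 and from 26.9 to 29.6 with shRad21_2, nearly all of it from Otx2. The part of any such cells in the levels of Calb2 and Hydin was not tested.

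The genes whose pattern was most like each member were found by Pearson's r of log2 CPM over the 9 libraries, as a description, since the points share groups and depth. For Calb2 these were Tex10 (r = 0.992), Dgcr8 (0.991), Pard6g (0.987), Uri1 (0.986) and Plat (0.985). All were far more abundant and moved far less. Plat, tissue plasminogen activator, averaged 442 ± 12.8 CPM for shNT, 560 ± 43.4 for shRad21_1 and 569 ± 23.5 for shRad21_2, and Pard6g, of the PAR6 polarity family, at 26.9 ± 1.06, 46.8 ± 8.27 and 50.7 ± 2.68 (SD, n = 3 each).

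For Hydin the genes were Pqlc1 (0.998), Il17d (0.993), Zdhhc13 (0.992), Ddx51 (0.992) and Arhgap31 (0.989). Il17d, a cytokine of the interleukin 17 family, was at 5.03, 4.48 and 5.14 CPM in shNT, at 20.3, 7.92 and 6.97 with shRad21_1 and at 23.8, 21.2 and 21.8 with shRad21_2. Replicate 1 of shRad21_1 was set apart as for Hydin, a likeness by which these genes were picked. Pqlc1, a transmembrane PQ-loop protein, was at 11.1, 10.4 and 10.0, then 27.4, 14.6 and 15.7, then 30.0, 28.4 and 28.9 CPM. Hydin ranked 56th in likeness to Calb2 and Calb2 ranked 123rd in likeness to Hydin, both at r = 0.952.

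**Figure D5:**
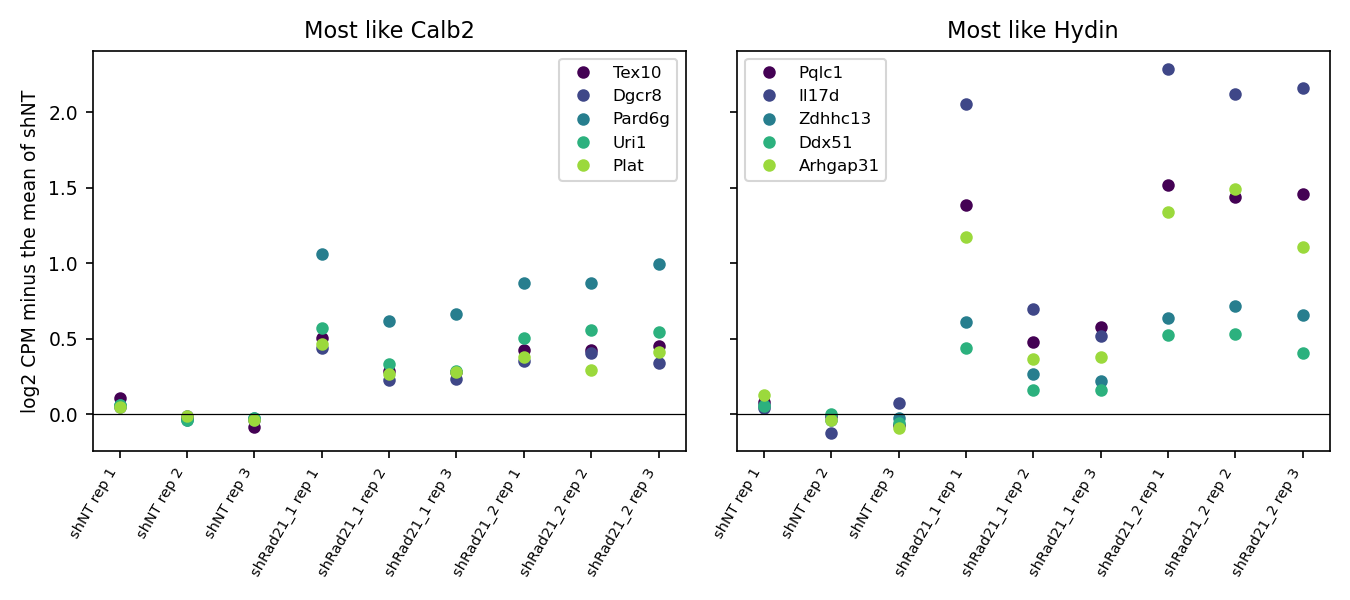
Log2 CPM relative to the mean of shNT (vertical axis) in each library (horizontal axis) for the 5 genes most like Calb2 (left) and the 5 most like Hydin (right), 1 colour per gene. In both plots shRad21_1 replicate 1 lies above replicates 2 and 3, as for Il17d at 20.3 CPM against 7.92 and 6.97. The genes were picked for their likeness to the members, which fixes this pattern.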

How the data were processed

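RNA from 9 libraries of mouse neural stem cells was sequenced. The deposited table holds raw counts per gene symbol, 1 column per library, as whole numbers that are not normalised. Per the submitters' processing notes, the tools were FastQC, cutadapt, Trim Galore, Bowtie2 and RSEM, with the build mm10; tool versions, annotation, strand setting and any rounding of RSEM's estimates: not given in the sources used here. Among 24503 genes, 13560 passed filterByExpr by group and were tested.

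Genes were tested with edgeR 4.0.16 (R 4.3.3; quasi-likelihood, TMM, 1 fit of 3 group means, two-sided, Benjamini-Hochberg over all genes tested, called at an adjusted p under 0.05). The test was checked on simulated counts with the same spread for all genes and libraries. That check does not cover close pairs of libraries or a library set apart from its group. CPM are on TMM-scaled totals. Log2 CPM used a prior count of 2. Each SE of an edgeR fold change is its absolute log2 value over the square root of the quasi-likelihood F statistic. The confidence intervals of fold changes (level 0.95) are symmetric t intervals built on that SE. The members, lists, window of 500 kb and rules were chosen with earlier results of these data known. Of 173 list entries 167 matched a row, 12 through an older symbol. Named genes were both members, Rad21, all tested genes of the window, the 5 most like each member, and from each list the 4 with the smallest p with shRad21_2 and the 2 with shRad21_1, or all if 5 or fewer were tested. Alternatives tried were scaling by library totals or by size factors from DESeq2 1.42.0, the DESeq2 Wald test, limma-voom (limma 3.58.1), no filter, a filter of 1 CPM in 3 libraries, fits of 2 groups, a replicate block, a window of 1000 kb and each library left out; close pairs of libraries summed was added after seeing the data.

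Replicate numbers are shared between groups, with no statement of what a number marks. Deviations from the group means correlated at 0.24, 0.12 and 0.12 for the same-numbered pairs of shNT and shRad21_1, each above 0.1. The main fit was unpaired, and the replicate block was run only as an alternative. These correlations are only a hint of pairing. For replicates 2 and 3, the cross-numbered pairs of these groups (0.16 and 0.15) correlated more than the same-numbered ones (0.12 and 0.12). Same-numbered pairs correlated between 0.06 and 0.08 for shNT with shRad21_2. For the 2 hairpins they correlated between 0.02 and 0.09, so none of these exceeded 0.1.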

Additional observations from a re-analysis of the deposited data

How the results depend on the processing

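For Calb2 and Hydin against shNT, the log2 fold changes kept their direction in every alternative run. With each library left out they ran from 4.47 to 7.75 (Calb2, shRad21_1), 5.92 to 7.81 (Calb2, shRad21_2), 1.75 to 3.84 (Hydin, shRad21_1) and 4.77 to 5.09 (Hydin, shRad21_2). Between the hairpins, Calb2 ran from -0.40 to 2.06 and Hydin from 1.09 to 3.19. The negative values of Calb2, without shRad21_1 replicate 2 (-0.39) or 3 (-0.40), without shRad21_2 replicate 1 (-0.08) and with close pairs summed (-0.37), reversed a value that was not called. Hydin passed the threshold between hairpins with limma-voom (2.21) and with the replicate block (2.03, SE 0.50, adjusted p = 0.0213), a pair of groups whose numbers share only a number. The log2 ratio of Hydin to Calb2 counts ran from 1.10 to 1.41 without each library.

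Of the neighbours, between 0 and 1 were higher and between 0 and 1 lower with shRad21_1 when each library was left out, and 0 were higher with close pairs summed. With shRad21_2, 4 were higher each time and 1 to 4 lower; 2 were lower with library totals only or a 2-group fit and 3 in the window of 1000 kb. Between hairpins 0 to 2 were higher and 1 to 2 lower; 2 were higher with the DESeq2 Wald test, 0 with close pairs summed, and 2 higher and 2 lower in the wider window. The lists held 92 distinct genes tested in the main fit. Leaving out each library gave 5 to 8 higher and 6 to 9 lower list members with shRad21_1. It gave 13 to 24 and 24 to 39 with shRad21_2, and 7 to 18 and 10 to 25 between hairpins. In the main fit over all genes, 4.19% were higher and 5.63% lower with shRad21_1. The shares were 21.1% and 22.5% with shRad21_2, and 11.9% and 14.4% between hairpins. Close pairs summed gave 1 higher and 1 lower with shRad21_1, 12 higher with shRad21_2 and 5 higher between hairpins. The stricter filter gave 5 lower with shRad21_1, and library totals or a 2-group fit gave 9 higher between hairpins. The causes were not tested, except that the stricter filter tests fewer genes and summing leaves fewer libraries. The replicate block changed no other call on Calb2, Hydin or the neighbours, and the calls of 3 list genes with shRad21_1, 5 with shRad21_2 and 5 between the hairpins. Depth limits Calb2 in shNT, at 4 counts, and most cilium genes.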

Other observations

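Replicate 1 of shRad21_1 lay alone of its group inside the range of shRad21_2 for 20 of the 92 tested genes of the lists (21.7%), against 13.5% of all tested genes. In other genes, picked with their values in view, it lay on the far side of the shRad21_2 range from its own group. The Notch target Hes5 was at 2.61 CPM in it and at 39.6 and 45.1 CPM in replicates 2 and 3, with 35.5, 47.0 and 48.1 CPM in shNT and 3.72, 14.6 and 12.4 CPM with shRad21_2. Kcnip3, a calcium-binding potassium channel partner, was at 39.7 CPM in it against 107 and 105 CPM, with 118, 113 and 111 CPM in shNT and 63.5, 44.2 and 51.0 CPM with shRad21_2.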
